A study of Rattus norvegicus with 36 samples.

Results

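Genes for zinc export, zinc import, zinc sensing and the zinc-dependent carbonic anhydrases were followed in the lung of rats under chronic hypoxia. Members were the genes of the deposited count table whose name, without an ending such as _predicted, belongs to the Slc30a series, the Slc39a series, the metallothioneins Mt1 to Mt4, Mtf1 or the carbonic anhydrases (Ca or Car and a number). This gave 34 of 27308 genes, namely 9 exporters, 11 importers, 2 sensing and buffering genes (Mtf1 and Mt3) and 12 carbonic anhydrases. Of these, 26 had enough counts to be tested, and the other 8 are described by their counts. A further 11 genes of these families in the RefSeq list, among them Mt1, Mt2A, Slc39a7, Slc39a8 and Slc30a9, had no deposited name that matched and are not among the members. Of these 11, Mt4 has a row under another symbol and stands with the other zinc-handling genes, where it was below the filter on low counts, and the rest were not analysed here.

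Zinc ions are moved across membranes by a pair of transporter families with opposite directions. SLC30 proteins, also called ZnT, carry zinc out of the cytosol, either out of the cell or into vesicles and the secretory pathway. SLC39 proteins, also called ZIP, carry zinc into the cytosol, and ZIP12, the product of Slc39a12, is the importer that the study's antibody was raised against. MTF1 is the transcription factor that senses free zinc in the cell, and metallothioneins bind zinc and buffer it. Carbonic anhydrases hold a zinc ion in their active site and interconvert carbon dioxide and bicarbonate, which in lung serves the release of carbon dioxide from blood and the control of pH.

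All animals were adult Sprague Dawley rats of 200 to 240 g in which the human form of Slc39a12 had been put in place of the rat gene (huSlc39a12), so every arm, the normoxic one included, carried the human target. In the first arm, with 6 female and 6 male libraries, rats breathed normobaric 10% oxygen for 2 weeks. They were given the anti-ZIP12 antibody APL-9796 at 10 mg/kg into the peritoneum, from 48 h before hypoxia and then every 3 days. In the second, with 6 female and 6 male libraries, rats had the same hypoxia and schedule with an IgG control antibody, also at 10 mg/kg. In the third, 6 females and 6 males were kept in normoxia, with no antibody in their labels, and the effects of IgG and of hypoxia therefore cannot be told apart between these arms. Both hypoxic arms were set against the same normoxic libraries, so their values are given side by side and their likeness is not counted as support. Nothing in the labels says that each library came from its own animal, and p-values therefore measure the spread between these libraries, which may be technical.

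The 36 libraries of lung RNA held 6.07 to 20.8 M counts. Levels are given as CPM, counts relative to the scaled library total, a unit that does not correct for gene length, so they compare arms and not genes. Lung markers were present, with alveolar type II markers summing to 13164 CPM or more in every library. Some libraries stood apart. Female normoxia 9 and female normoxia 8 had the highest alveolar type II sums (42685 and 31900 CPM), male APL-9796 5 had 3189 CPM of skeletal muscle markers against at most 54.3 CPM in the other libraries of its arm, and male IgG 6 had 2016 CPM of adipocyte and 1250 CPM of cardiac muscle markers. Sequencing run was not given in the labels. It was inferred from parts of the read file names, and the letters A to C were assigned here. Run so inferred was uneven, with 26 libraries in run A (5 female and 5 male APL-9796, 2 female and 5 male IgG, 3 female and 6 male normoxic), 9 in run B and 1 in run C. The run C library was female normoxia 8.

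Promoter sequences are shown for 4 members, because metal and hypoxia response motifs can be looked for in them beside the values. Each is the 250 bases before the RefSeq gene start (assembly GRCr8), read 5′ to 3′ on the gene's strand. Capitals mark every match, on either strand, to the metal response element that MTF1 binds (searched as TGCACNC and TGCGCNC), to the core bound by hypoxia-inducible factors (searched as ACGTG and GCGTG), and to the zinc transcriptional regulatory element known from promoters of human zinc genes (searched as CACTCCC and GGGAGTG with 2 bases between them). The last motif was added after the Slc30a5 sequence had been seen. Matches may overlap, and adjoining ones run together in the capitals. Slc30a5 (chr2:33709899-33710148, minus strand) and Slc30a6 (chr6:26802657-26802906, minus strand) encode partners in 1 transporter, Slc30a1 (chr13:106021769-106022018, plus strand) is the best known exporter target of MTF1, and Car11 (chr1:105306290-105306539, plus strand) was the member with the higher level in hypoxia.
Slc30a5: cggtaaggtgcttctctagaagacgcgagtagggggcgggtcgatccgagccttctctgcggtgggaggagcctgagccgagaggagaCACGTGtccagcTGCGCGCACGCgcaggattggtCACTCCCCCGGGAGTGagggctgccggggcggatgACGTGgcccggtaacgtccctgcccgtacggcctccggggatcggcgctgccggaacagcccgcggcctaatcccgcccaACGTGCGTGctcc
Slc30a6: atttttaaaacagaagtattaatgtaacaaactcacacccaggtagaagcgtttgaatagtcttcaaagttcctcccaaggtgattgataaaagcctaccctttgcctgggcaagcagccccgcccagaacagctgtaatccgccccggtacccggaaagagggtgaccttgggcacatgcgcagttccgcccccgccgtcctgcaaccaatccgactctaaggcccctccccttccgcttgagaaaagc
Slc30a1: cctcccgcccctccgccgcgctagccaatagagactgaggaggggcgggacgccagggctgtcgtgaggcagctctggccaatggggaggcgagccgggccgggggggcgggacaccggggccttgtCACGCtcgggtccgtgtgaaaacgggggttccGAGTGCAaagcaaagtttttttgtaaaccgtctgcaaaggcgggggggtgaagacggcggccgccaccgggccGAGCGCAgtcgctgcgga
Car11: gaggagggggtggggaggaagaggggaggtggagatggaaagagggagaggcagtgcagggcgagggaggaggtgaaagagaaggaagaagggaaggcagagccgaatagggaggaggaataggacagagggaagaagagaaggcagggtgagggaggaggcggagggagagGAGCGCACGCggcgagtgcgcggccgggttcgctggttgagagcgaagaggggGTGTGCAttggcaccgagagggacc

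The Slc30a5 window held 1 copy of the zinc transcriptional regulatory element, from 128 to 113 bases before the start, in the form CACTCCCCCGGGAGTG. The search matched it on both strands, because the bases between its outer parts were left free. The Slc30a5 window also held metal response elements and hypoxia cores. Over all motifs and both strands it had 10 matches, the most of any member window. Among 33469 rat promoter windows of this length, 1 held the zinc transcriptional regulatory element, that of Slc30a5. Since this motif was added after the Slc30a5 sequence had been seen, its match there was fixed in advance and is no finding of the search. Slc30a1 held 2 metal response elements and 1 hypoxia core, and Car11 likewise held 2 and 1. Slc30a6 had none of these letters in its window. Over the 25 windows found for 24 members, 9 (36%) held a metal response element, against 20.6% of all windows, and 13 (52.0%) held a hypoxia core, against 36.7% of all windows. These matches are descriptions of the sequence, and no binding was measured.

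Hypoxia went with small shifts in a few members, and most were at levels that the test did not separate. With APL-9796, 1 of 26 tested members was higher than in normoxia (Car11) and 5 were lower (Car8, Car5b, Slc30a5, Slc39a4 and Slc30a6). With IgG, Car11 was again higher and Car8, Car5b, Slc30a5 and Slc39a4 were lower. Between the antibodies in hypoxia, 0 of 26 members differed. Each call is a Benjamini-Hochberg adjusted p under 0.05 (FDR below) from edgeR's quasi-likelihood test on all 15570 genes with enough counts.

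Set against all genes tested, the share of members called was not far from the background. For hypoxia with APL-9796 minus normoxia, 6 of 26 members (23.1%) were called, beside 18% of all genes, 9.08% higher and 8.93% lower. An unadjusted p under 0.05 was found for 8 members and for 32% of all genes. For hypoxia with IgG minus normoxia, 5 of 26 members (19.2%) were called, beside 12.5% of all genes, 6.31% higher and 6.19% lower. An unadjusted p under 0.05 was found for 9 members and for 25.9% of all genes. The median log2 fold change of the members was −0.03 with APL-9796 and −0.09 with IgG, beside −0.02 for all genes tested in each comparison. Fewer cells of a type and less RNA per cell cannot be told apart in such whole-tissue libraries.

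**Figure D1:**
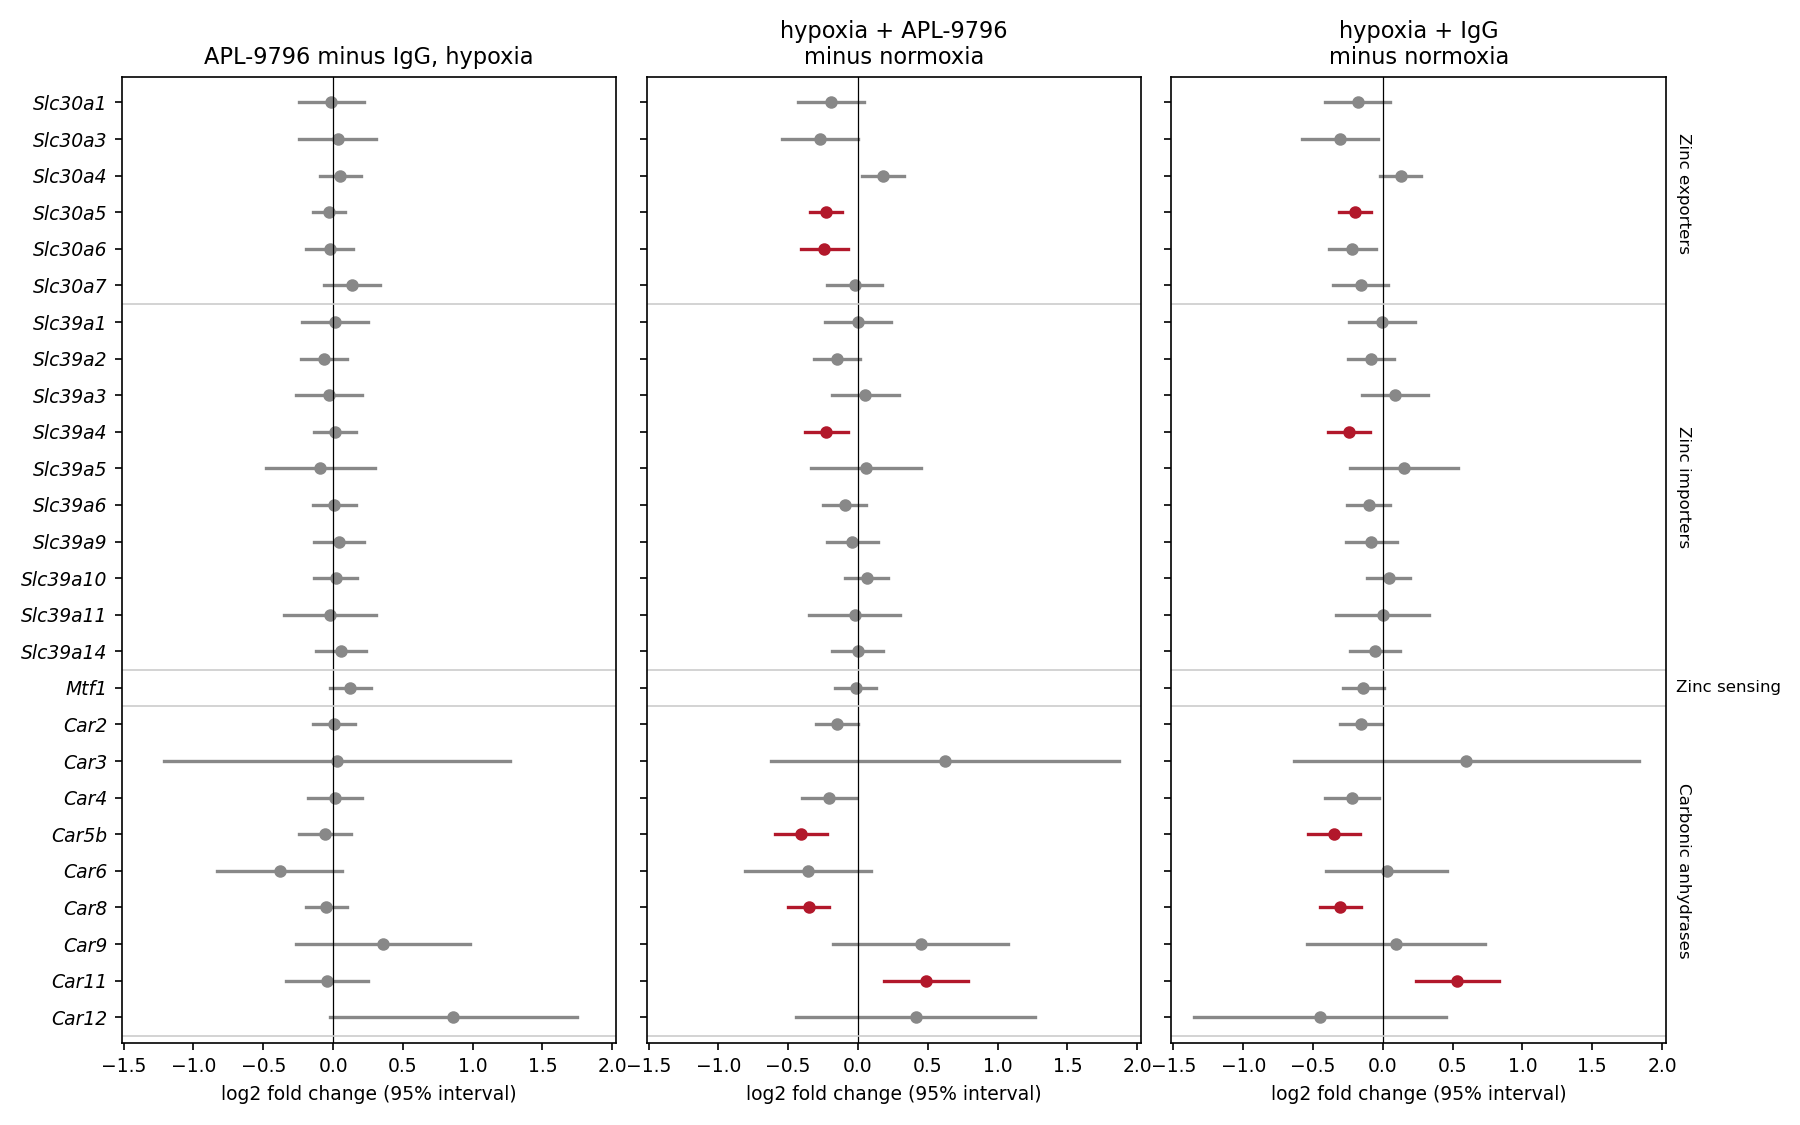
Log2 fold change (x axis) of the 26 tested members, grouped by class down the page, with 95% intervals as bars, for APL-9796 minus IgG in hypoxia, hypoxia with APL-9796 minus normoxia, and hypoxia with IgG minus normoxia. Red marks an FDR under 0.05, which 0, 6 and 5 members reached in these 3 comparisons.

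Among the exporters, Slc30a5 was lower in both hypoxic arms, while its known partner Slc30a6 passed the test with APL-9796 and missed it with IgG. Their products ZnT5 and ZnT6 form a heterodimer that loads zinc into the early secretory pathway, where enzymes such as alkaline phosphatase receive it. Of 6 tested exporters, 2 were lower and 0 higher with APL-9796, and 1 was lower and 0 higher with IgG, beside 8.93% and 6.19% of all genes lower. The median log2 fold changes of the exporters were −0.21 and −0.19.

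Slc30a5 (rCG_44645) had a lowest, median and highest level of 65.2, 79.1 and 83.2 CPM with APL-9796, of 66.0, 80.0 and 85.7 CPM with IgG, and of 78.0, 87.5 and 136 CPM in normoxia. All 12 APL-9796 libraries and 11 of 12 IgG libraries lay below the normoxic mean of their own sex, yet the ranges overlapped, since 3 libraries of each hypoxic arm fell under the lowest normoxic one. The means were 77.6 ± 5.21 CPM with APL-9796, 79.2 ± 5.59 CPM with IgG and 91.2 ± 15.3 CPM in normoxia (SD, n = 12 each). The log2 fold change over normoxia was −0.23 ± 0.06 with APL-9796 (SE, FDR = 0.00411) and −0.20 ± 0.06 with IgG (FDR = 0.0150). Female normoxia 9, at 136 CPM, was the highest library. Without it the values were −0.16 with APL-9796 and −0.13 with IgG (FDR = 0.00636 and 0.0373). Without both female normoxia 8 and 9 they were −0.14 and −0.10, and the call with IgG was lost. Over the 10 other settings, the call with APL-9796 held in 10 (FDR up to 0.0419) and that with IgG in 7 (FDR up to 0.209). The Slc30a5 call with APL-9796 held in each of the 36 fits that left out 1 library, and the call with IgG was lost without male IgG 6 and without female IgG 7, at −0.18 in both (FDR = 0.0524 and 0.0514).

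Slc30a6 (rCG_61919) ran through 14.6, 17.9 and 21.8 CPM (lowest, median, highest) with APL-9796, 14.2, 19.1 and 21.1 CPM with IgG, and 16.9, 20.6 and 32.6 CPM in normoxia. The arms overlapped, with 4 libraries of each hypoxic arm below the lowest normoxic one and female normoxia 9 again the highest. Its log2 fold change over normoxia was −0.24 ± 0.08 with APL-9796 (FDR = 0.0374) and −0.22 ± 0.08 with IgG (FDR = 0.0751, not called). Without female normoxia 9 these were −0.16 and −0.14 (FDR = 0.131 and 0.250). The Slc30a6 call with APL-9796 was lost in 26 of the 36 fits that each left out 1 library and held in 5 of 10 other settings, with an FDR of 0.0131 to 0.227 over all of them.

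The other 4 tested exporters were not called. Slc30a1 (rCG_20163), the plasma membrane exporter whose mRNA is induced by zinc through MTF1 in many cells, averaged 34.1 ± 8.15 CPM with APL-9796, 34.3 ± 5.07 CPM with IgG and 39.0 ± 8.68 CPM in normoxia, with log2 fold changes over normoxia of −0.19 (FDR = 0.249) and −0.18 (FDR = 0.331). Slc30a4 (rCG_26480), which fills vesicles with zinc and is needed for zinc in mouse milk, had the opposite sign, at 80.4 ± 9.98 CPM with APL-9796, 77.7 ± 11.3 CPM with IgG and 70.9 ± 9.57 CPM in normoxia. Its log2 fold change was 0.18 with APL-9796 (FDR = 0.0811) and 0.13 with IgG (FDR = 0.272). Without female normoxia 8 and 9, Slc30a4 passed the threshold in both comparisons, at 0.26 and 0.21 (FDR = 0.00998 and 0.0461).
Slc30a3, which loads zinc into synaptic vesicles of neurons, stood at 7.41 ± 2.30, 7.20 ± 1.49 and 8.90 ± 1.68 CPM with APL-9796, with IgG and in normoxia. Without male APL-9796 4, the highest of its arm at 13.7 CPM, Slc30a3 was lower with APL-9796 than in normoxia at −0.38 (FDR = 0.0184). With sequencing run as a term it was lower with IgG than in normoxia, at −0.39 (FDR = 0.0407). Slc30a7, a Golgi exporter, stood at 16.9 ± 3.09, 15.4 ± 2.06 and 17.3 ± 2.85 CPM in the same order.

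**Figure D2:**
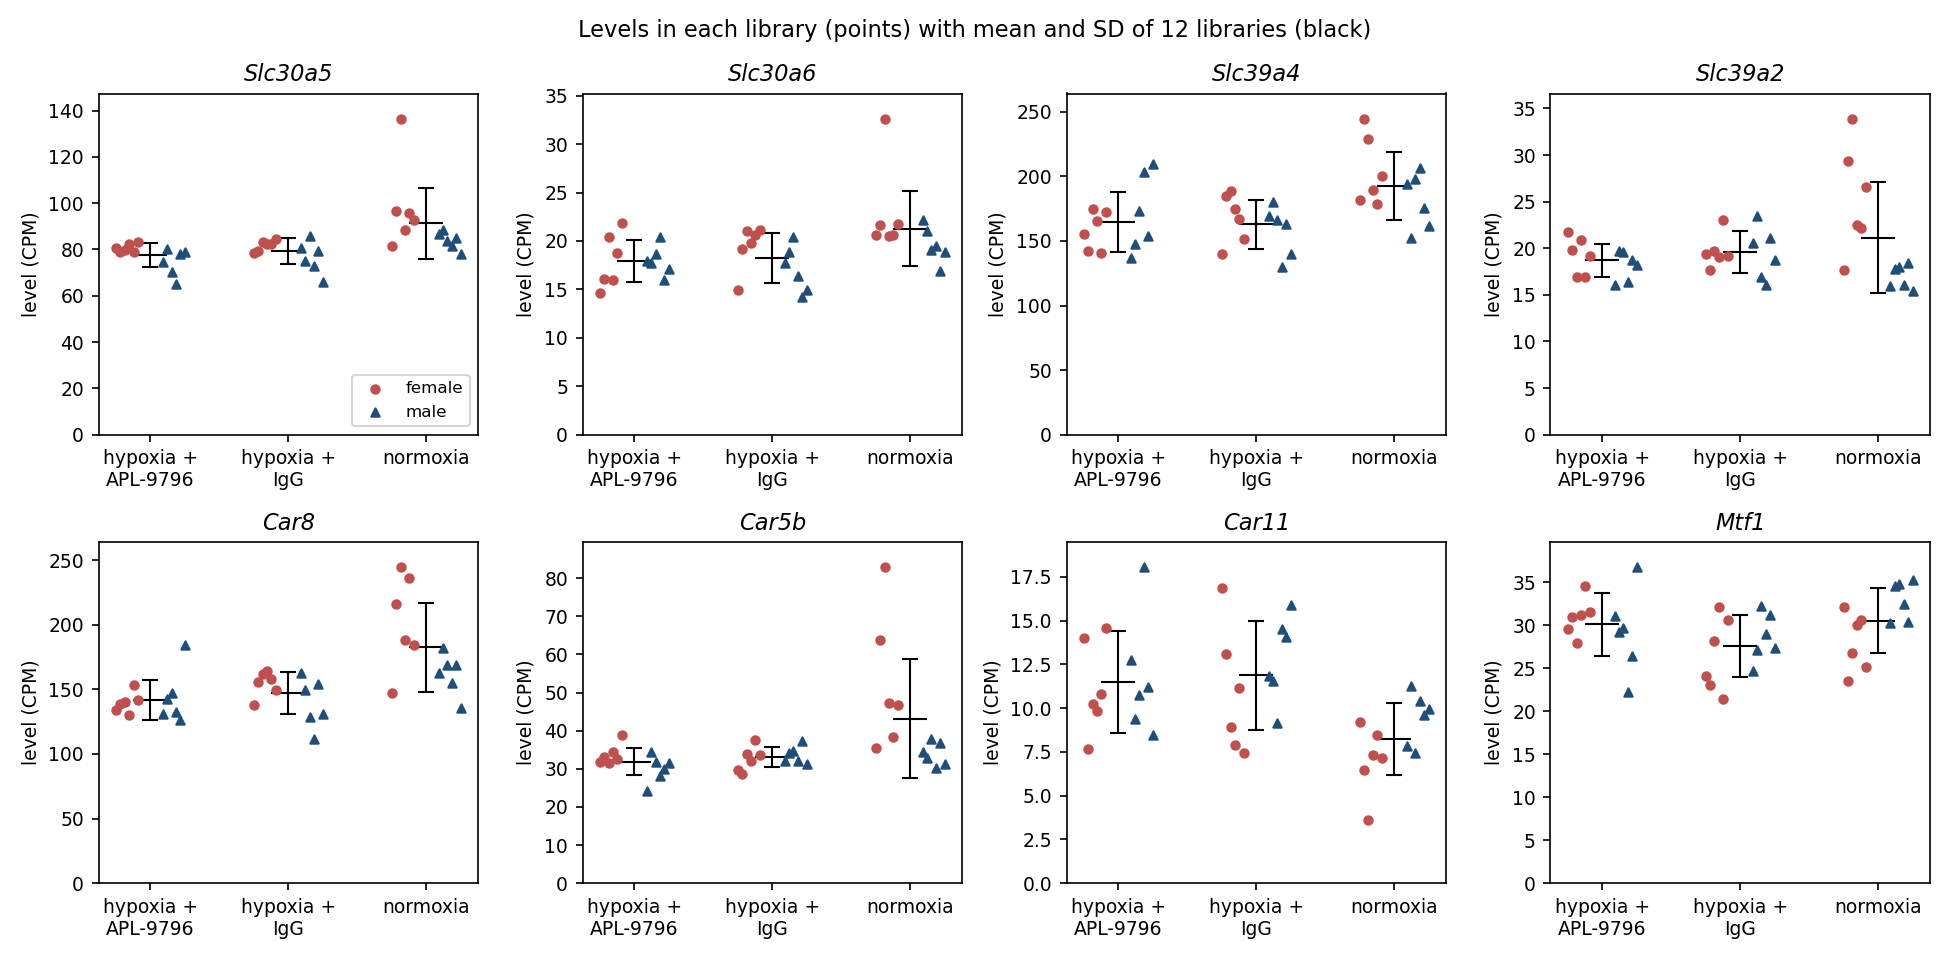
Level in CPM (y axis, from 0) of 8 members in each library, for hypoxia with APL-9796, hypoxia with IgG and normoxia from left to right, with females as circles, males as triangles and the mean and SD of 12 libraries in black. Female normoxia 9 is the highest point for Slc30a5 (136 CPM), Slc30a6 (32.6 CPM) and Car5b (82.9 CPM), and the arms overlap in every panel.

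Of 10 tested importers, 1 (10%) was called, Slc39a4, which was lower in both hypoxic arms. Of all genes tested, 8.93% were lower with APL-9796 and 6.19% with IgG. ZIP4 takes up dietary zinc in the intestine, and its loss causes the zinc deficiency acrodermatitis enteropathica in humans. The median log2 fold change of the importers was −0.01 with APL-9796 and −0.03 with IgG, close to the −0.02 of all genes tested.

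Slc39a4 (rCG_60103) had a lowest, median and highest level of 137, 160.3 and 209.6 CPM with APL-9796, 129.9, 167 and 188 CPM with IgG, and 153, 192 and 245 CPM in normoxia. The arms overlapped widely, and female normoxia 8 was the highest library. The log2 fold change over normoxia was −0.23 ± 0.07 with APL-9796 (FDR = 0.0315) and −0.24 ± 0.07 with IgG (FDR = 0.0276). The calls were not firm. They were lost in 18 and 11 of the 36 fits that each left out 1 library, and without both female normoxia 8 and 9 the values were −0.14 and −0.15 (FDR = 0.242 and 0.189).

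The 9 other tested importers had log2 fold changes over normoxia of −0.15 to 0.06 with APL-9796 and −0.10 to 0.15 with IgG, and none passed the test. They include the plasma membrane importers Slc39a1, Slc39a2 and Slc39a3. Slc39a1 (rCG_62757) averaged 29.5 ± 3.84 CPM with APL-9796, 29.4 ± 5.13 CPM with IgG and 29.6 ± 6.47 CPM in normoxia. Slc39a3 (rCG_29453) averaged 23.9 ± 2.53, 24.5 ± 3.24 and 23.1 ± 5.57 CPM in those arms, and female normoxia 9 had the lowest value of both genes, at 11.3 CPM for Slc39a1 and 7.91 CPM for Slc39a3. Slc39a6 and Slc39a10, related importers that can act as a complex, averaged 27.1 ± 3.77 and 73.1 ± 12.0 CPM with APL-9796, 27.04 ± 2.38 and 72.0 ± 6.74 CPM with IgG, and 29.01 ± 3.79 and 69.9 ± 7.38 CPM in normoxia. Slc39a14 (rCG_37186), which also carries iron and manganese, averaged 19.1 ± 2.49 CPM with APL-9796, 18.4 ± 2.67 CPM with IgG and 19.3 ± 4.02 CPM in normoxia. Slc39a9, Slc39a11 and Slc39a5 averaged 28.04 ± 4.85, 4.11 ± 0.576 and 2.97 ± 0.863 CPM with APL-9796, 27.2 ± 3.26, 4.19 ± 0.999 and 3.13 ± 0.525 CPM with IgG, and 28.8 ± 3.24, 4.24 ± 1.48 and 2.82 ± 1.11 CPM in normoxia. For these 9 genes the distance between arms was within the spread of libraries.

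The antibody's target could not be read at its rat locus. The Slc39a12 row (rCG_55714) held 0 counts in all 36 libraries, which pooled allows at most 0.00735 CPM. Since the rat gene had been replaced, and since the counting of human SLC39A12 reads at this row was not given in the sources used here, neither the target's level nor its change with hypoxia was measured.

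The zinc sensor Mtf1 (rCG_30839) was not called in any comparison. Its lowest, median and highest values were 22.2, 30.3 and 36.7 CPM with APL-9796, 21.5, 27.7 and 32.3 CPM with IgG, and 23.5, 30.5 and 35.3 CPM in normoxia. The log2 fold change was 0.12 ± 0.07 for APL-9796 over IgG (FDR = 0.967), −0.02 ± 0.07 for APL-9796 over normoxia (FDR = 0.906) and −0.14 ± 0.07 for IgG over normoxia (FDR = 0.218). Mt3 (39 counts in all) was below the filter, with 15 counts in 4 libraries with APL-9796, 20 counts in 8 libraries with IgG and 4 counts in 3 normoxic libraries. With the main metallothioneins outside the table's matched names, the usual transcript readout of cell zinc was not analysed here.

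The carbonic anhydrases held 3 of the 6 members called in any comparison, and 2 of these 3, Car8 and Car11, encode carbonic anhydrase-related proteins that lack catalytic activity. Car8 protein is known to bind the inositol trisphosphate receptor in cerebellar neurons. The third, Car5b, is a mitochondrial enzyme that supplies bicarbonate to metabolism. Of 9 tested genes of this class, 1 was higher and 2 were lower in both hypoxic arms, beside 9.08% of all genes higher and 8.93% lower with APL-9796, and 6.31% and 6.19% with IgG. The median log2 fold change of the class was −0.15 with APL-9796 and −0.15 with IgG.

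Car8 (rCG_30438) had a lowest, median and highest level of 126, 139 and 184 CPM with APL-9796, of 112, 152 and 164 CPM with IgG, and of 135, 175 and 244 CPM in normoxia. In each hypoxic arm 11 of 12 libraries lay below the normoxic mean of their sex, and the arms overlapped. The means were 142 ± 15.5 CPM with APL-9796, 147 ± 16.4 CPM with IgG and 182 ± 34.2 CPM in normoxia (SD, n = 12 each). Over normoxia, the log2 fold change was −0.35 ± 0.07 with APL-9796 (FDR = 0.000517) and −0.30 ± 0.07 with IgG (FDR = 0.00315). Both calls held in each of the 36 fits that left out 1 library and without female normoxia 8 and 9, where the values were −0.28 and −0.23 (FDR = 0.00567 and 0.0291).

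Alveolar type II markers were also lower in part in the hypoxic arms. The 6 markers summed to 16385 ± 1492 CPM with APL-9796, 17253 ± 1406 CPM with IgG and 22148 ± 7646 CPM in normoxia, and 5 of 6 were lower with APL-9796 than in normoxia and 3 of 6 with IgG. Their sums ran from 13164 to 19135 CPM with APL-9796, from 15436 to 20986 CPM with IgG and from 17094 to 42685 CPM in normoxia, with none of the markers at 0. Female normoxia 9 had both the highest sum and the highest Car8, 244 CPM. The same library was the highest for Slc30a5, Slc30a6 and Car5b. In the hypoxic arms the highest alveolar type II sums were in male APL-9796 4 and female IgG 11, with Car8 at 133 and 158 CPM. The highest Car8 of these arms was in male APL-9796 6 and female IgG 10, at 184 and 164 CPM. The part of these cells in the values of Car8, Car5b, Slc30a5, Slc30a6 and Slc39a4 was not tested.

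**Figure D3:**
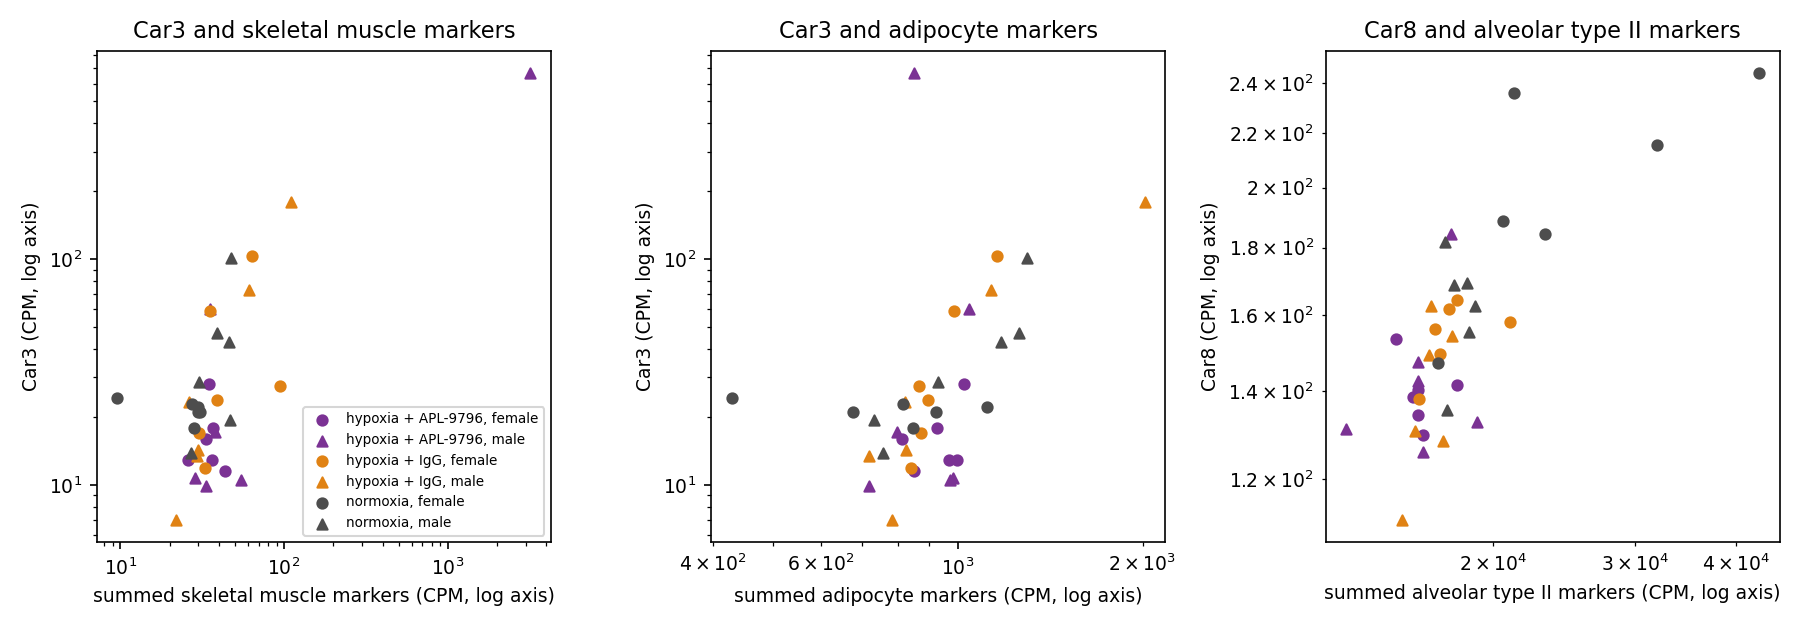
Level of Car3 against summed skeletal muscle markers and against summed adipocyte markers, and level of Car8 against summed alveolar type II markers (CPM, log axes), with 1 point per library coloured by arm. Male APL-9796 5 stands alone with 668 CPM of Car3 and 3189 CPM of skeletal muscle markers, and female normoxia 9 has the highest Car8 and alveolar type II values.

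Car5b (rCG_49653) had a lowest, median and highest level of 24.2, 31.8 and 38.9 CPM with APL-9796, of 28.7, 32.8 and 37.5 CPM with IgG, and of 30.2, 37.3 and 82.9 CPM in normoxia. The spread in normoxia was wide and came from females, which ran from 35.5 to 82.9 CPM, while normoxic males ran from 30.2 to 37.8 CPM. Over normoxia, the log2 fold change was −0.41 ± 0.09 with APL-9796 (FDR = 0.00166) and −0.35 ± 0.09 with IgG (FDR = 0.00791). It was called in each of the 36 fits that left out 1 library. Without female normoxia 8 and 9 it was −0.22 with APL-9796 (FDR = 0.0149) and −0.16 with IgG (FDR = 0.0894).

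Car11 (rCG_54257) was the only member called higher in hypoxia. Its lowest, median and highest values were 7.67, 10.8 and 18.1 CPM with APL-9796, 7.46, 11.7 and 16.9 CPM with IgG, and 3.61, 8.15 and 11.3 CPM in normoxia. With IgG 7 libraries lay above the highest normoxic one, and with APL-9796 4 did, so the arms overlapped. As a log2 fold change over normoxia this was 0.49 ± 0.15 with APL-9796 (FDR = 0.0183) and 0.53 ± 0.15 with IgG (FDR = 0.0117). It was called in each of the 36 fits that left out 1 library, and in 7 of 10 other settings in each comparison. Among the settings that lost both calls was limma-voom with quality weights, at 0.32 and 0.34 (FDR = 0.0529 and 0.0610).

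Within sequencing run A alone, which leaves 10 APL-9796, 7 IgG and 9 normoxic libraries, the 6 members kept their direction. Against normoxia, Car8 was at −0.30 with APL-9796 and −0.27 with IgG (FDR = 0.0329 and 0.178), and Car5b at −0.42 and −0.39 (FDR = 0.0115 and 0.0813). Car11 was at 0.42 and 0.32 (FDR = 0.0679 and 0.337). Slc30a5 was at −0.23 and −0.21 (FDR = 0.0419 and 0.209), Slc39a4 at −0.23 and −0.24 (FDR = 0.0864 and 0.213), and Slc30a6 at −0.28 and −0.20 (FDR = 0.0508 and 0.345). With run as a term in the model on all libraries, Slc39a4 missed the threshold with APL-9796 and with IgG, and Car11 missed it with IgG (FDR = 0.0667, 0.0556 and 0.0524), while Slc30a3 with IgG passed it. In that model female normoxia 8, alone in run C, is fitted by its own run term and does not weigh in the comparisons.

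**Figure D4:**
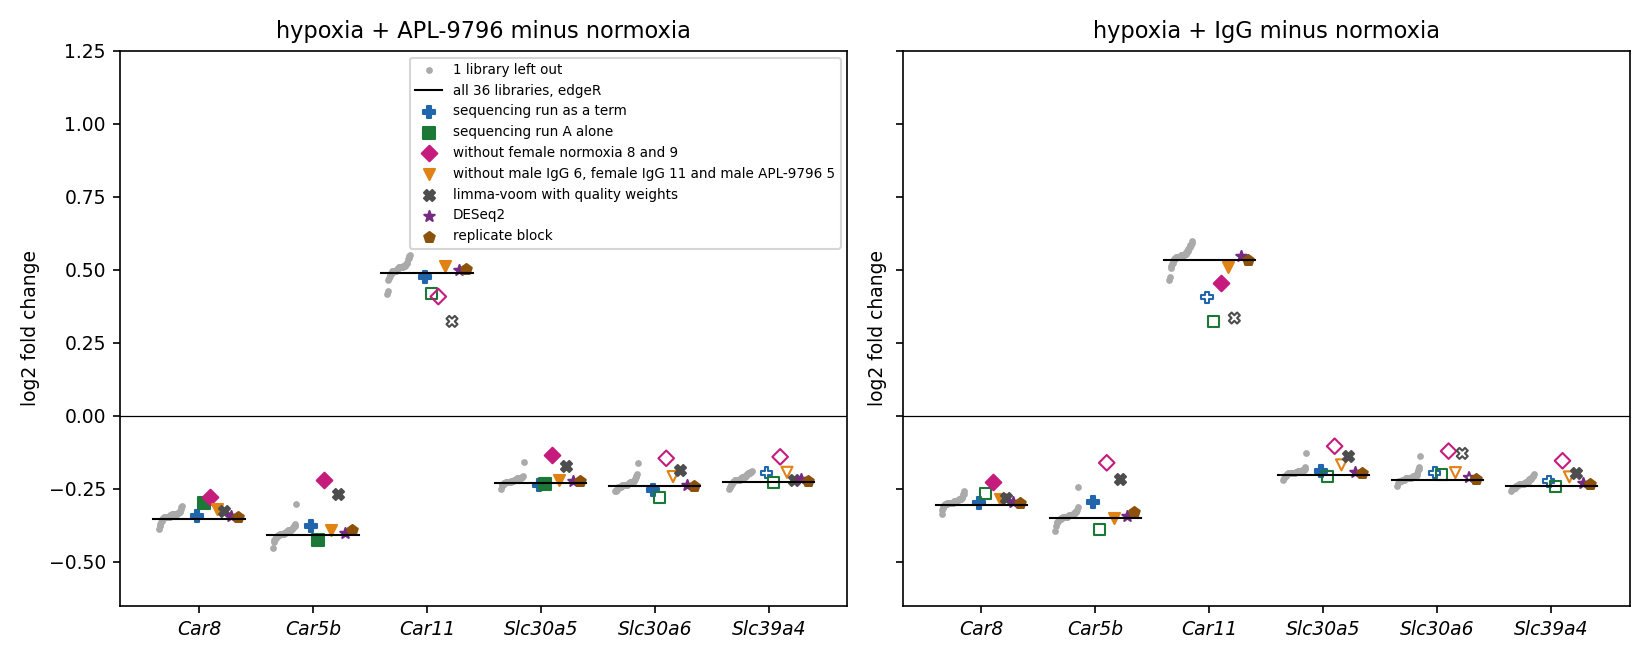
Log2 fold change over normoxia (y axis) of the 6 called members for hypoxia with APL-9796 (left) and hypoxia with IgG (right) under other settings. The line is the fit on all 36 libraries, grey points leave out 1 library each, and filled symbols have an FDR under 0.05. Every point keeps its sign, and for Slc30a5 and Car5b the values nearest to 0 are those without female normoxia 8 and 9 (−0.14 and −0.22 with APL-9796, −0.10 and −0.16 with IgG).

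The carbonic anhydrases of blood and capillary surface did not pass the test. Car2 (rCG_41546), the highly active cytosolic form, averaged 117 ± 10.1 CPM with APL-9796, 117 ± 15.1 CPM with IgG and 130.0 ± 20.1 CPM in normoxia, with log2 fold changes of −0.15 in both comparisons with normoxia (FDR = 0.168 and 0.177). Car4 (rCG_32830), anchored on the luminal face of lung capillaries, averaged 90.0 ± 17.6, 89.2 ± 9.91 and 104 ± 20.5 CPM in those arms, with log2 fold changes of −0.21 and −0.22 (FDR = 0.121 and 0.126). Without male APL-9796 4, its highest library with APL-9796 at 137 CPM, Car4 was called lower with APL-9796 than in normoxia, at −0.28 (FDR = 0.0213). In normoxia, female normoxia 9 was the highest for Car2 and Car4, at 187 and 156 CPM, and female normoxia 8 was next, at 137 and 122 CPM. Beside these, the 6 markers of aerocyte capillary cells summed to 1720 to 2106 CPM with APL-9796, 1530 to 1952 CPM with IgG and 1328 to 1894 CPM in normoxia, and 2 were higher in each hypoxic arm while 1 was lower with APL-9796 and 2 with IgG. The 9 erythroid markers summed to 132 to 261 CPM with APL-9796, 132 to 189.8 CPM with IgG and 186 to 284 CPM in normoxia, and 1 of the 7 tested was lower in each hypoxic arm. That gene, Tmcc2, made up most of the sums, averaging 143 CPM with APL-9796, 137 CPM with IgG and 210.1 CPM in normoxia. The red cell anion exchanger Slc4a1 averaged 5.17 CPM with APL-9796, 2.66 CPM with IgG and 2.81 CPM in normoxia and was not called. Over the pooled libraries of each arm no marker of either list was at 0, though the erythroid marker Rhag was at 0 in some libraries of every arm. Their part in the values of Car2 and Car4 was not tested.

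Car3 (rCG_41512), abundant in skeletal muscle and fat, was set by single libraries. Its lowest, median and highest levels were 9.93, 14.5 and 668 CPM with APL-9796, 6.99, 23.6 and 180.1 CPM with IgG, and 13.9, 22.5 and 101 CPM in normoxia. The highest with APL-9796 was male APL-9796 5, the library with skeletal muscle markers, and the highest with IgG was male IgG 6, the library with adipocyte and cardiac markers. The log2 fold change of APL-9796 over IgG was 0.03 (FDR = 0.998) and −1.29 without male APL-9796 5 (FDR = 0.958). Skeletal muscle markers summed to 25.9 to 3189 CPM with APL-9796, 22 to 110 CPM with IgG and 9.61 to 47.2 CPM in normoxia, and adipocyte markers to 716 to 1044, 717 to 2016 and 429 to 1297 CPM. Fasn and Lipe, which are also expressed outside fat, made up most of the adipocyte sums, averaging 701 and 178 CPM with APL-9796, 709.6 and 168 CPM with IgG, and 768 and 103 CPM in normoxia. Adipoq, the adipocyte hormone adiponectin, averaged 4.38 CPM with APL-9796, 15.4 CPM with IgG and 7.33 CPM in normoxia. No gene of either list was at 0 over the pooled libraries of an arm, but Ucp1, Lep and Adrb3 of the adipocyte list and Tnnt1, Tnni2, Actn3 and Pvalb of the muscle list were at 0 in some libraries. Against normoxia, 3 of 6 tested skeletal muscle markers were higher with APL-9796 and 0 with IgG, and 1 of 12 adipocyte markers was higher with APL-9796 (Lipe) and 5 with IgG (Lipe, Adrb3, Cidea, Plin1 and Ucp1). The part of this tissue in the Car3 values was not tested.

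Car9 and Car12, membrane enzymes known as targets of hypoxia-inducible factors in tumours, were near the detection limit in all arms. Car9 (rCG_55097) averaged 0.942 ± 0.269 CPM with APL-9796, 0.728 ± 0.505 CPM with IgG and 0.700 ± 0.410 CPM in normoxia. Its log2 fold change over normoxia was 0.45 with APL-9796 (95% interval −0.18 to 1.077) and 0.09 with IgG (−0.55 to 0.73). Car12 (rCG_57969) averaged 1.74 ± 2.22, 0.959 ± 0.542 and 1.31 ± 0.886 CPM in those arms, and male APL-9796 5 alone had 8.04 CPM. Car6, a form secreted in saliva, averaged 1.45 ± 0.675, 1.92 ± 0.376 and 1.94 ± 0.672 CPM and was not called.

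The comparison the study was built around, APL-9796 against IgG in hypoxia, separated none of these genes. By edgeR, 0 of 26 members were called and 0 had an unadjusted p under 0.05, where 0% of all genes were called and 4.02% had such a p. DESeq2 and limma-voom also called 0 of 26. The median log2 fold change was 0.01 over the members, 0.01 over the exporters, 0.01 over the importers and 0.01 over the carbonic anhydrases, beside 0.0042 over all genes tested.

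For 22 of the 26 members, the 95% interval of the difference lay within 0.5 on the log2 scale either way. Slc30a5 differed by −0.03 (95% interval −0.15 to 0.09), Slc39a4 by 0.01 (−0.14 to 0.17), Car8 by −0.05 (−0.19 to 0.10) and Slc30a1 by −0.01 (−0.25 to 0.22). The 4 members with wider intervals were Car3, Car6, Car9 and Car12. The smallest p-values belonged to Car12, Car6, Mtf1 and Slc30a7 (FDR = 0.967 each). Car12 was at 0.86 (−0.02 to 1.75), and at 0.16 without male APL-9796 5. Car6 was at −0.38 (−0.83 to 0.07), Mtf1 at 0.12 (−0.02 to 0.27) and Slc30a7 at 0.13 (−0.06 to 0.33).

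Between females and males, over the 3 arms, 0 of 26 members passed edgeR's test, where 1.65% of all genes were called. An unadjusted p under 0.05 was found for 7 of 26, against 18.8% of all genes. Slc39a2 (rCG_61213) had a lowest, median and highest level of 16.9, 19.7 and 33.9 CPM in the 18 female libraries, and of 15.4, 18.1 and 23.5 CPM in the 18 male libraries. The sexes overlapped, and the 2 highest values were in normoxic females. Female minus male, the log2 fold change was 0.23 ± 0.07 (FDR = 0.0637). Car5b ran through 28.7, 34.2 and 82.9 CPM in females and 24.2, 32.1 and 37.8 CPM in males, with a log2 fold change of 0.25 ± 0.08 (FDR = 0.0684). DESeq2 called both higher in females, at FDR 0.0430 for Slc39a2 and 0.0451 for Car5b.

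The change with hypoxia and IgG had its smallest p-values for a sex difference in the same 2 genes, and neither passed the test (0 of 26 members). Car5b was at −0.69 in females (FDR = 0.000453) and −0.01 in males (FDR = 0.989), and the difference of these changes was −0.67 ± 0.18 (FDR = 0.134). In females Car5b averaged 32.6 ± 3.20 CPM with IgG and 52.4 ± 17.9 CPM in normoxia, and in males 33.6 ± 2.23 CPM with IgG and 33.9 ± 3.04 CPM in normoxia. Slc39a2 was at −0.37 in females and 0.20 in males (FDR = 0.0258 and 0.508), a difference of −0.57 ± 0.16 (FDR = 0.140). Of all genes 0.0128% were called for this difference, and 15.9% had an unadjusted p under 0.05, against 4 of 26 members. Without female normoxia 8 and 9 the differences were −0.33 for Car5b and −0.35 for Slc39a2 (FDR = 0.458 and 0.485).

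The effect of APL-9796 over IgG differed by sex for 0 of 26 members (0% of all genes), with an unadjusted p under 0.05 for 2 members and for 4.4% of all genes. Car3 was at −1.27 in females and 1.33 in males, a difference of −2.60 ± 1.22 (FDR = 0.963), which was 0.04 without male APL-9796 5. Slc30a4 was at 0.21 in females and −0.10 in males, a difference of 0.31 ± 0.15 (FDR = 0.963).

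Partner genes outside these families were counted in the same fit. Of all genes tested, 9.08% were higher and 8.93% lower with APL-9796 than in normoxia, and 6.31% and 6.19% with IgG. Among 14 tested transporters of bicarbonate, protons, lactate and carbon dioxide, 2 were higher and 1 was lower with APL-9796 than in normoxia, and 0 were called with IgG. Of those called, the water and gas channel Aqp1 was at 0.18 and 0.16 (FDR = 0.0413 and 0.0905) and the chloride-bicarbonate exchanger Slc26a3 at −0.65 and −0.56 (FDR = 0.0216 and 0.0577), with APL-9796 and with IgG over normoxia. Among 7 other tested zinc-handling genes, 2 were higher and 1 was lower with APL-9796 and 0 were called with IgG. These were Slc40a1, an iron exporter that also carries zinc (0.30, FDR = 0.0299), Trpa1, a channel that zinc can open (0.58, FDR = 0.0304), and Tmem163, a vesicle zinc exporter (−0.24, FDR = 0.0138). The threshold was passed in 1 comparison and missed in the other for these 5 genes, and that contrast between the antibodies was not itself called for any gene of the 2 lists.

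Of 8 tested targets of hypoxia-inducible factors outside the carbonic anhydrases, 2 were higher and 0 lower in each hypoxic arm. Aldoc, a glycolytic aldolase, was at 0.93 with APL-9796 and 1.11 with IgG over normoxia, and Pdk1, which restrains pyruvate entry into mitochondria, at 0.34 and 0.45. Of 9 tested glucocorticoid response genes, 1 was higher and 4 were lower with APL-9796, and 1 was higher and 2 were lower with IgG. Beside the counts of these lists, 9.08% of all genes were higher and 8.93% lower with APL-9796, and 6.31% and 6.19% with IgG. In the comparison of APL-9796 with IgG, 0 genes of these lists were called.

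The remaining members gave too few counts for a test. Slc30a10, a manganese exporter in humans, had 0 counts in 36 libraries, as did Slc39a12. Slc30a8, the zinc transporter of insulin granules, had 12 counts in all, Slc30a2, an exporter of secretory vesicles, 70, and Car15, a kidney form in mouse, 15. Car1, the main form of red cells beside Car2, had 68 counts, with 21, 23 and 24 in the APL-9796, IgG and normoxic libraries. Car5a, the mitochondrial form of liver, had 82 counts, with 27, 41 and 14 in those arms. Per library, a count of 0 allows between 0.144 and 0.494 CPM, a limit that covers counting error alone.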

How the data were processed

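Whole-lung RNA of 36 libraries was analysed from the deposited table of whole-number read counts per gene, which the authors gave without normalization. The submitters' processing notes name DESeq2 1.24.0, while the aligner, counter, strand, genome build and annotation were not given in the sources used here. Overlapping and antisense genes may therefore share reads. A line of totals was left out. Arm and sex in the deposited information sheet matched the labels in 36 of 36 libraries.

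Totals of 6.07 to 20.8 M counts limit the precision of low genes, and a count of 0 was read as at most 3 counts, for counting error only. CPM was computed on TMM-scaled totals. One edgeR 4.0.16 model (R 4.3.3, filterByExpr, robust quasi-likelihood test) held a term for each of the 6 arm by sex groups. Contrasts weighted the sexes equally, and p-values were adjusted by Benjamini-Hochberg over 15570 genes (FDR, threshold 0.05). The script was tested on simulated data. Libraries of 1 group all differed by more than sampling noise, with a chi-square per gene of at least 3.76 over 90 pairs.

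Members, gene lists and markers were chosen with earlier results of these data known. Named members are those called, filled to 4 by smallest p in comparisons of arms and to 2 in those of sex. Promoters and symbols came from RefSeq tables of GRCr8, with coordinates for the promoters alone. Alternatives were RLE size factors, no count filter, at least 1 CPM in 12 libraries, DESeq2 1.42.0, limma-voom 3.58.1 with quality weights, a replicate block, sequencing run as a term, run A alone, 2 sets of libraries left out, and each library left out. The result of 1 gene among the partner genes is not reported here.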

Additional observations from a re-analysis of the deposited data

Results flagged for a closer look

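In each group of 6 libraries, the highest or lowest library was picked out where its gap to the nearest other as a share of the group's range exceeded Dixon's 95% critical value. Of 156 groups checked (26 members in 6 groups), 19 had such a library, and chance alone picks about 1 in 20. The cause of each was not tested.

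Female normoxia 9, the library with the highest alveolar type II marker sum (42685 CPM), was picked out for 6 members. It was high for Slc30a1 (65.6 CPM, next 39.7), Slc30a4 (97.3, next 72.4), Slc30a5 (136, next 96.8) and Slc30a6 (32.6, next 21.7), and low for Slc39a1 (11.3, next 29.4) and Slc39a3 (7.91, next 21.6).

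Male APL-9796 4 was picked out for 4 members. It was high for Car4 (137 CPM) and Slc30a3 (13.7 CPM) and low for Slc30a1 (13.3 CPM) and Slc39a9 (13.6 CPM). It also had the highest alveolar type I sum of its arm, 8485 CPM.

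Male APL-9796 5 was high for Car3 (668 CPM) and Car12 (8.04 CPM), beside 3189 CPM of skeletal muscle markers. Female IgG 11 was low for Slc30a1 (22.9 CPM) and high for Slc39a2 (23.1 CPM). The others were 1 member each, namely Car12 in female APL-9796 12 (4.02 CPM), Car8 in male APL-9796 6 (184 CPM), Slc30a6 in female IgG 7 (14.98 CPM), Slc39a1 in male normoxia 3 (23.3 CPM) and Slc39a11 in male normoxia 5 (6.52 CPM).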

How the results depend on the processing

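The number of called members in hypoxia with APL-9796 minus normoxia, 6, was 3 in run A alone (0 higher, 3 lower) and 4 to 9 when each library was left out, with 9 without male APL-9796 4. That in hypoxia with IgG minus normoxia, 5, was 0 in run A alone, 3 without female normoxia 8 and 9, 3 without 3 libraries with high muscle or fat markers (male APL-9796 5, male IgG 6 and female IgG 11), and 3 to 5 when each library was left out, with 3 without male IgG 6 or female IgG 7. Those called without female normoxia 8 and 9 were Car8, Car11 and Slc30a4, of which Slc30a4 was newly called. Female minus male went above its count of 0, to 3 with DESeq2 (Slc39a2 and Car5b higher, Car3 lower), to 3 with limma-voom (Slc39a2, Car5b and Slc30a5 higher) and to 0 to 3 when each library was left out, with 3 without female normoxia 7. The sex difference in hypoxia with IgG minus normoxia went above 0, to 2 with limma-voom and to 0 to 2 when each library was left out, with 2 without female normoxia 7 (Car5b and Slc39a2). APL-9796 minus IgG stayed at 0 in every fit run, as did its sex difference. The sex difference of Car3 in APL-9796 minus IgG, −2.60, ran from −3.60 to 0.04 when each library was left out, changing sign without male APL-9796 5, and no other named value changed sign. Against normoxia in both hypoxic arms, limma-voom called Slc30a3 lower and Slc30a4 higher. Runs B and C, with 9 and 1 libraries, were not fitted alone. The data did not show that replicate numbers pair the libraries. The median correlation of 36 same-numbered pairs was 0.039, over 0.1 in 9. For 180 pairs of other numbers it was −0.012, over 0.1 in 37, and 9 of 36 libraries correlated best with their own number. With the replicate block, hypoxia with IgG minus normoxia had 6 called members, Slc30a6 being added, and hypoxia with APL-9796 minus normoxia had 6. Depth limits members near 1 CPM, such as Car9 and Car12, whose intervals were the widest apart from Car3.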
